A study of Homo sapiens with 6 samples.

Results

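The NF-kB family and its inhibitors are a set of 10 genes: the subunits NFKB1, NFKB2, REL, RELA and RELB, the cytoplasmic inhibitors NFKBIA and NFKBIB, the atypical nuclear inhibitors NFKBIZ and BCL3, and the kinase IKBKB. Their accessible regions were taken from a table of 108542 regions measured by ATAC-seq, in which the Tn5 transposase cuts and tags open chromatin. Regions that reached within 2 kb of the start of any protein-coding transcript of the 10 genes were taken as promoter regions, and a distal region was any other region whose nearest such start site, within 100 kb, belonged to one of them. This gave 38 regions, of which 16 were promoter regions and 22 were distal. Regions were assigned to the genes by position only, not by the change in accessibility. The genes themselves were chosen with earlier results of these data known.

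The cells were EndoC-βH3, a human beta-like cell line of fetal pancreatic origin that carries 2 immortalizing transgenes, hTERT and the SV40 large T antigen. 3 libraries came from senescent cells, in which 4-hydroxy-tamoxifen (4-OHT) had been given for 3 weeks to activate the CreER recombinase and remove both transgenes. 3 libraries came from non-senescent control cells, which keep both transgenes, and the labels give the genotype of all cells as WT. Each library was made from 100000 cells. 4-OHT exposure, loss of the transgenes and senescence came together, so they cannot be told apart in this comparison, and all libraries come from 1 line. No source used here says whether the replicates were separate cultures, so p-values measure only the spread between these libraries.

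NF-kB factors are dimers of Rel-domain proteins. In the canonical route, dimers such as p50 (made from NFKB1) with RELA are held in the cytoplasm by IκB proteins until the IκB kinase complex, with its catalytic subunit IKKβ (IKBKB), marks IκBα (NFKBIA) or IκBβ (NFKBIB) for degradation. In the noncanonical route, the NFKB2 precursor p100 is processed to p52, which pairs with RELB. NFKBIA, NFKB2, RELB, BCL3 and NFKBIZ are themselves classical targets of NF-kB, and in islets the pathway is known for its response to inflammatory cytokines.

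Accessibility at the strongest promoter region of each of the 10 genes, that with the highest mean signal, did not change past the study's limits of an adjusted p under 0.05 and a fold change over 1.5. In 9 of the 10 genes the 95% interval of the change lay wholly inside 1.5-fold in either direction, against 78.5% of the strongest promoter regions of 15493 genes. The exception was IKBKB, which was lower in senescent cells by 0.48 on the log2 scale. Calls were made at 7 of the 38 regions in all. Of the 16 promoter regions, 2 weaker ones, of NFKB2 and NFKBIZ, fell, beside 9.04% of all promoter regions. Of the 22 distal regions, 4, of NFKB1, REL, NFKBIA and NFKBIZ, rose, beside 17.4% of all distal regions within 100 kb, and 1 inside NFKB1 fell, beside 10.9%.

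Beta-cell identity was checked first. All 12 beta-cell markers examined had a promoter region, with log2 fold changes from −0.47 at ABCC8 to 1.11 at INS and 7 of the 12 below 0. Only that of INS was called, and its region also covers starts of IGF2 and INS-IGF2. Regions were also present at 3 of 3 alpha-cell, 2 of 2 delta-cell, 1 of 2 ductal, 2 of 3 acinar, 1 of 3 immune, 1 of 3 fibroblast and 1 of 2 endothelial markers, and those of the delta-cell genes SST and HHEX fell. None was found at CFTR, PRSS1, PTPRC, CD3E, COL3A1, PDGFRB or CDH5. An accessible promoter does not show that the gene is expressed, and the part of these other markers in the values below was not tested. The promoter region of the proliferation gene MKI67 was lower in senescent cells (−0.53 ± 0.097, SE), which with the study's own labelling set the direction of the fold changes, since the table does not name the numerator.

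κB sites are the DNA elements that NF-kB dimers bind, and the promoter regions of the 5 classical target genes among the members were searched for the decamer consensus of these sites on both strands. Matches were found 3 times in BCL3, 8 times in NFKB2, 4 times in NFKBIA, 3 times in NFKBIZ and 2 times in RELB, with overlapping matches counted separately. 11 of these 20 windows overlapped an annotated untranslated exon and are not shown. 8 of the 9 others are given below, and that of NFKB2 further on, with 25 bases on either side, on the strand of the gene, in the hg38 build, with the match in capitals. They are shown because they are the candidate NF-kB contacts inside the regions whose accessibility is described.
NFKBIA, 76 bases before the start, chr14:35404796-35404855, minus strand: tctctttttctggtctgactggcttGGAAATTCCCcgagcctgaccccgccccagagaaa
NFKBIA, 332 bases before the start, chr14:35405052-35405111, minus strand: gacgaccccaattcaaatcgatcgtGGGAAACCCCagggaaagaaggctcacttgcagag
NFKBIA, 145 bases after a start, in the coding exon, chr14:35404572-35404631, minus strand: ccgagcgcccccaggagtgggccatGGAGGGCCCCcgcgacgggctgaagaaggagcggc
RELB, 52 bases before the start, chr19:45001380-45001439, plus strand: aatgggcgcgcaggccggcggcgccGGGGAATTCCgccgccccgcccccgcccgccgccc
RELB, 124 bases before the start, chr19:45001308-45001367, plus strand: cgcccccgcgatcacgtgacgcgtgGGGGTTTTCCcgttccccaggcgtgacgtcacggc
NFKBIZ, 281 bases before a start, chr3:101849953-101850012, plus strand: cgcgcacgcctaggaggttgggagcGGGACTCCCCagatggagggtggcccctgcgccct
BCL3, 1189 bases before the start, chr19:44747490-44747549, plus strand: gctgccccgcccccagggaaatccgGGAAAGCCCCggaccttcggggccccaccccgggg
BCL3, 2131 bases after the start, chr19:44753423-44753482, plus strand: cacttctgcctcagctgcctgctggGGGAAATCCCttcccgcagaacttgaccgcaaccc

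Senescent and non-senescent cells were then compared at the promoters. Since values of single libraries are not part of the deposited table, the level of each group was derived from the mean signal and the fold change, and these levels are approximate. The mean signal is the number of reads in a region divided by the library's size factor and averaged over the 6 libraries.

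Among the subunits, NFKB1, the source of p50 and of its precursor p105, has 1 promoter region (chr4:102500435-102502547), which covers 2112 bases around its start. Its implied signal was 955 normalized reads in non-senescent and 928 in senescent cells, a log2 fold change of −0.04 ± 0.068 (SE, 3 against 3 libraries, adjusted p = 0.66). REL, which encodes the c-Rel subunit, was as close to 0: its promoter region (chr2:60880822-60882194) had 1221 and 1178 normalized reads (−0.05 ± 0.064, adjusted p = 0.54). The 95% intervals of the change ran from −0.17 to 0.09 at NFKB1 and from −0.18 to 0.07 at REL, so a change of 1.5-fold, or 0.58 on the log2 scale, lay outside both.

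RELA, the main transactivating subunit of the canonical route, has 2 promoter regions. The stronger (chr11:65662700-65663897), centred 208 bases before a start and inside the divergent noncoding gene RELA-DT, had an implied 569 normalized reads in non-senescent and 624 in senescent cells (0.13 ± 0.090, adjusted p = 0.23). The weaker (chr11:65661825-65662282), 375 bases after a start and with a mean signal of only 63.5, had a value of −0.40 with a wide interval, from −0.89 to 0.09. RELB, the partner of p52, has 1 promoter region (chr19:45001200-45002248), whose implied signal was 538 and 584 normalized reads (0.12 ± 0.094, adjusted p = 0.32). As deposited, neither gene had a promoter region past the limit on the adjusted p. With the trend of the fold change with mean signal removed, the stronger RELA region (0.26, adjusted p = 0.011) and the RELB region (0.25, adjusted p = 0.022) passed it. With the trend with GC content removed, that RELA region passed it (0.25, adjusted p = 0.015) and RELB did not (0.21, adjusted p = 0.063). All of these values were short of the fold limit.

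NFKB2 was the subunit with the largest promoter differences. The strongest region (chr10:102393989-102395050) had 1467 normalized reads in non-senescent and 1130 in senescent cells, a log2 fold change of −0.38 ± 0.061 (adjusted p = 9.9e-09), which was well past the limit on p and short of that on fold. Its 95% interval, −0.50 to −0.26, excluded both 0 and 1.5-fold. The second promoter region (chr10:102395366-102395693), in an intron 164 bases before an inner start, fell from 210 to 135 normalized reads (−0.63 ± 0.15, adjusted p = 0.00013). Its call was lost when the trend of the fold change with GC content was removed (−0.49), and the GC content of its middle 300 bases was 70.0%. A distal region in a coding exon of the gene (chr10:102399246-102399963) had a value of −0.21 ± 0.071 (adjusted p = 0.0090), but no longer passed the limit on p when the trend with mean signal (−0.10, adjusted p = 0.28) or GC content (−0.07, adjusted p = 0.43) was removed. Both promoter regions of NFKB2 stayed past that limit under either correction.

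The middle of the called NFKB2 promoter region is shown because it is the only one of the 7 called member regions with a κB match in the 300 bases examined. Capitals mark the κB match and 2 GC boxes (GGGCGG, either strand).
NFKB2, chr10:102395430-102395629, plus strand: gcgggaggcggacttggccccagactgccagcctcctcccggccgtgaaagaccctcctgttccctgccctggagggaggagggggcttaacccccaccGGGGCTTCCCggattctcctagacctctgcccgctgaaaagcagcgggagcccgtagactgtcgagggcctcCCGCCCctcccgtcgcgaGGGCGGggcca

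The cytoplasmic inhibitors each have 1 promoter region. At NFKBIA, whose product IκBα ends the canonical response, the region that holds the κB matches shown above (chr14:35403585-35405270) had an implied 1115 normalized reads in non-senescent and 1025 in senescent cells (−0.12 ± 0.066, adjusted p = 0.13). The interval ran from −0.25 to 0.01. At NFKBIB, which encodes IκBβ, the region (chr19:38899258-38900282) also covers the start of SIRT2, a deacetylase gene on the other strand, and both starts cannot be told apart in it. It had the highest signal of the family, 2182 and 2420 normalized reads, and was higher in senescent cells by 0.15 ± 0.051 (adjusted p = 0.011), an amount far below 1.5-fold.

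The atypical inhibitors have 3 promoter regions each. NFKBIZ encodes IκBζ, a nuclear protein that acts with p50 on a set of inflammatory genes. Its strongest promoter region (chr3:101848867-101850191) had 1435 normalized reads in non-senescent and 1627 in senescent cells (0.18 ± 0.067, adjusted p = 0.018). The other two moved the opposite way. The region in an intron near an inner start (chr3:101854636-101855239) fell from 215 to 137 normalized reads (−0.65 ± 0.15, adjusted p = 8.8e-05), and a region at a distant upstream start inside NXPE3 (chr3:101827509-101828398) had a value of −0.47 ± 0.16 (adjusted p = 0.0092), short of the fold limit. The interval of the strongest region, 0.05 to 0.31, did not overlap those of the other two, −0.94 to −0.35 and −0.78 to −0.16.

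The fallen NFKBIZ region is AT-rich, with a GC content of 34.7% in its middle 300 bases against a median of 65.7% over all promoter regions. Its middle is shown as the largest fall among the promoter regions, and it has no match to any of the 9 motifs searched.
NFKBIZ, chr3:101854838-101855037, plus strand: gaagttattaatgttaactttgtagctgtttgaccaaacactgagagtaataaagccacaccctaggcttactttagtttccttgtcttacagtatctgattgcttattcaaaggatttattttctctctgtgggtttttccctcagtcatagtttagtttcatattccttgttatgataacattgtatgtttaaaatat

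BCL3 encodes a nuclear IκB protein that binds p50 and p52 dimers. It had the weakest of the strongest promoter regions per length (chr19:44747119-44748293), with 260 normalized reads in non-senescent and 218 in senescent cells (−0.25 ± 0.15, adjusted p = 0.17). The region over the start itself (chr19:44748558-44748776) had a mean signal of 50.6 and a value of −0.08, and the third (chr19:44753101-44753587), in an intron, had a value of 0.14. None of the 3 passed the limit on the adjusted p.

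IKBKB, the kinase gene, has 1 promoter region (chr8:42270354-42271888), which lies over its start and the divergent IKBKB-DT. Its implied signal was 588 normalized reads in non-senescent and 421 in senescent cells (−0.48 ± 0.092, adjusted p = 1.5e-06). The interval, −0.66 to −0.30, excluded 0 but not a 1.5-fold fall. IKBKB stood lowest of the 10 strongest promoter regions, with a fold change above that of only 10.8% of the 15493 genes, and NFKBIZ stood highest, above 90.1%.

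**Figure D1:**
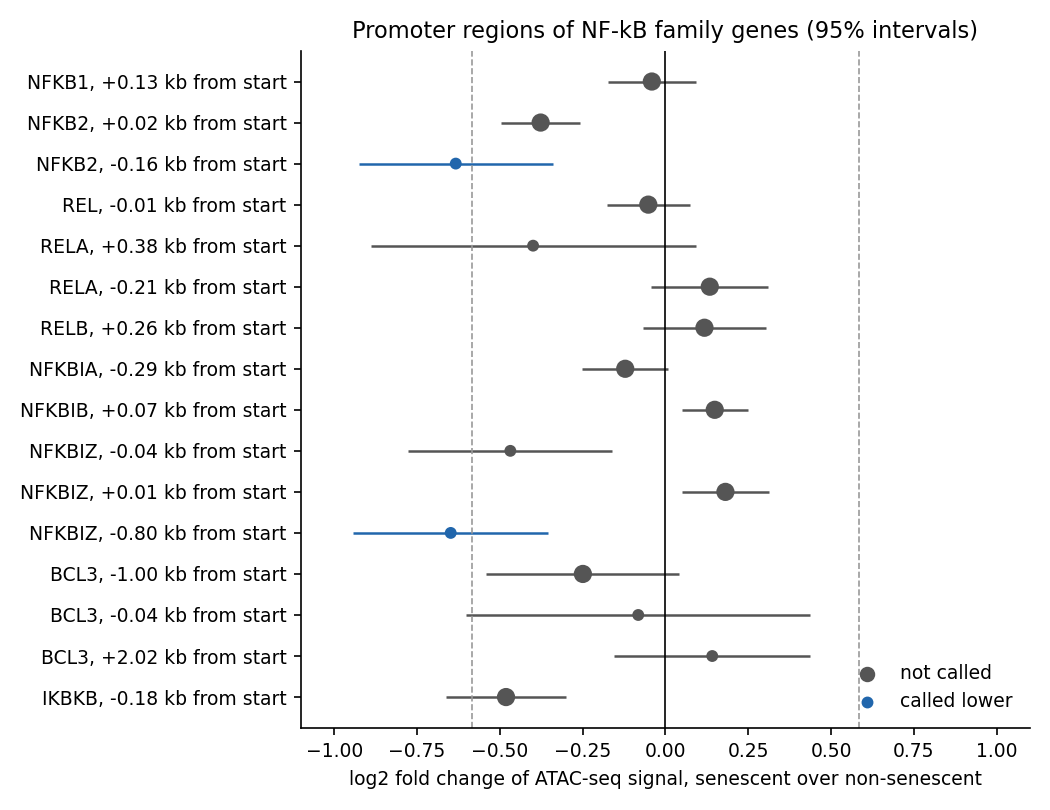
Log2 fold change of ATAC-seq signal (senescent over non-senescent, x axis) at the 16 promoter regions, one per row, labelled by gene and by the distance of the region's middle from the nearest start of that gene. Points are the authors' estimates with 95% intervals, large points mark the strongest region of each gene and dashed lines mark 1.5-fold, which 1 region of NFKB2 and 1 of NFKBIZ pass.

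Over the 16 promoter regions, 0 were called higher, against a background of 3.56% of all 20094 promoter regions, and 2, or 12.5%, were called lower, against 9.04%. Without the fold limit, 2 were higher (background 10.2%) and 5, or 31.2%, were lower (background 34.7%). The median log2 fold change was −0.10, beside −0.13 for all promoter regions. These shares were near the background, and nothing particular to the family is read from them.

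Among strongest promoter regions alone, 0 of 10 were called in either direction, against 1.39% of the 15493 genes called higher and 7.02% called lower. At any fold, 2 were higher (NFKBIB and NFKBIZ) and 2 lower (NFKB2 and IKBKB), beside 8.23% and 39.9% of genes. These 4 stayed past the limit on p when the trend with mean signal or with GC content was removed, at −0.26 and −0.23 for NFKB2, −0.36 and −0.37 for IKBKB, 0.25 and 0.33 for NFKBIB, and 0.30 and 0.24 for NFKBIZ. RELA joined them under either correction, and RELB when the trend with mean signal was removed, both as higher. Levels of the 10 genes can be compared only per length. On that scale NFKBIB was highest, with 2247 normalized reads per kb, followed by NFKB2 (1224), NFKBIZ (1156), REL (875), NFKBIA (635), RELB (536), RELA (498), NFKB1 (446), IKBKB (329) and BCL3 (204), and the median over genes was 686. The spread of these levels over libraries is not in the table, so neighbours in this order cannot be separated. The regions were chosen by total signal, and at BCL3 both weaker promoter regions had more per length, with 232 and 455 normalized reads per kb.

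**Figure D2:**
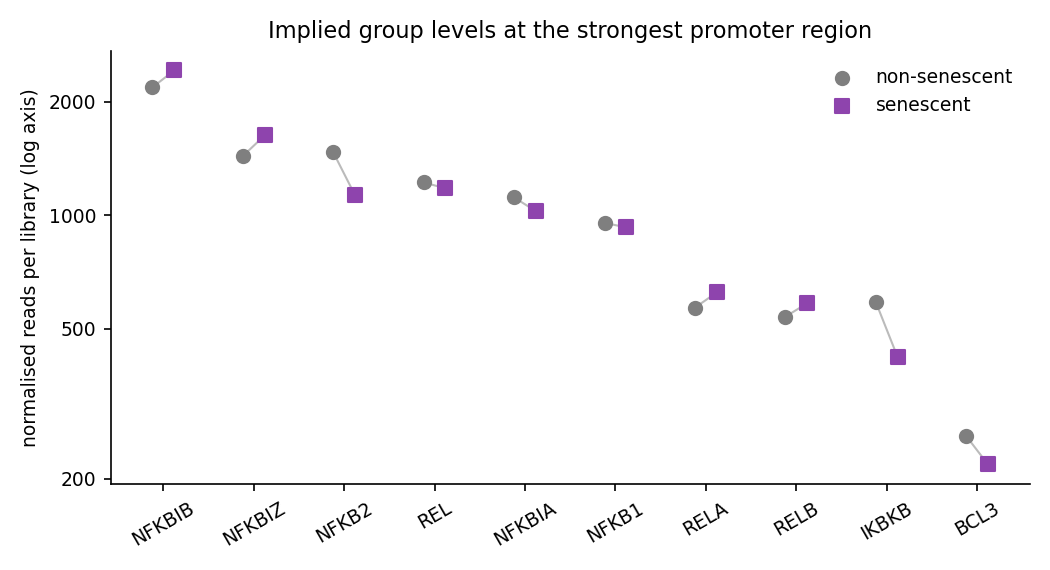
Implied mean signal in normalized reads per library (y axis, log scale) at the strongest promoter region of each gene in non-senescent (circles) and senescent cells (squares), derived from the authors' mean and fold change, with no spread between libraries available. The widest gaps are at IKBKB (588 and 421) and NFKB2 (1467 and 1130).

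Distal regions were compared next. 8 of the 10 genes had at least 1, while NFKBIB and IKBKB had none, as did 29.0% of the genes with a promoter region. The median number per gene was 2. By the position of their middle, 14 of the 22 lay outside protein-coding genes, 6 in the member gene itself and 2 in another gene.

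NFKB1 had the largest change in each direction. An upstream region (chr4:102472627-102473100), 28.5 kb before the start and outside genes, rose from an implied 9.04 to 25.9 normalized reads (1.52 ± 0.48, adjusted p = 0.0056). The signal there was very low, and the interval ran from 0.57 to 2.46. A strong region in an intron (chr4:102554499-102555740), 51.7 kb after the nearest start, fell from 538 to 270 normalized reads (−0.99 ± 0.12, adjusted p = 2.5e-16). It was the only one of the 7 called regions whose interval, −1.22 to −0.77, lay wholly past 1.5-fold. The 2 other distal regions of NFKB1, in a noncoding gene upstream, had values of −0.07 and 0.01.

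The middles of both called NFKB1 regions are shown as the largest rise and the largest fall of the family. Neither 200-base window holds a match to any of the 9 motifs.
NFKB1, rise, chr4:102472764-102472963, plus strand: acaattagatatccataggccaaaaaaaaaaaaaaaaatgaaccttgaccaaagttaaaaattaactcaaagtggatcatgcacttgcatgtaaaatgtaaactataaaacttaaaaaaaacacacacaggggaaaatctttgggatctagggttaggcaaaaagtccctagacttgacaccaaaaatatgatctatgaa
NFKB1, fall, chr4:102555020-102555219, plus strand: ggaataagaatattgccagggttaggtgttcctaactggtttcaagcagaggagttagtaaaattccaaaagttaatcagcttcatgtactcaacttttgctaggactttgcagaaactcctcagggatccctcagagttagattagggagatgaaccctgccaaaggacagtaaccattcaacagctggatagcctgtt

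At REL, a region in an untranslated exon (chr2:60925935-60926461), 44.6 kb after the start, rose from 121 to 219 normalized reads (0.86 ± 0.16, adjusted p = 4.6e-07). Its interval ran from 0.55 to 1.16. The second REL region, in an intron of PUS10, had a value of −0.03. At NFKBIA, a region 34.8 kb before the start (chr14:35439315-35439806) rose from 59.4 to 102 normalized reads (0.78 ± 0.22, adjusted p = 0.0014). The 3 other NFKBIA regions had values of −0.10, −0.28 and −0.38, none past the limit on the adjusted p, so the rise was at 1 of 4 upstream regions.

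The middle of the NFKBIA region that rose is shown as the third largest rise, and it has none of the 9 motifs in its 200 bases. That of REL, the second largest, overlaps an untranslated exon and is not shown.
NFKBIA, chr14:35439461-35439660, plus strand: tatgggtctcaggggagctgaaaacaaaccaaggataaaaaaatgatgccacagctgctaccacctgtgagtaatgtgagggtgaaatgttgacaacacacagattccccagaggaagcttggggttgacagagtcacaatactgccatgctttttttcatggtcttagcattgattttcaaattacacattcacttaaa

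NFKBIZ had 5 distal regions. A region 88.9 kb after the nearest start (chr3:101944420-101944801), inside the noncoding gene RDUR, rose from 67.6 to 105 normalized reads (0.64 ± 0.23, adjusted p = 0.013). This call is close to both limits: it was lost at an adjusted p under 0.01 and when the trend with mean signal was removed (0.57). The strongest distal region of NFKBIZ, in an intron of NXPE3 12.8 kb before a start, had 440 and 503 normalized reads (0.19 ± 0.093, adjusted p = 0.078). The other 3 had mean signals of 10.6 to 33.6 and values from −0.38 to 0.96, and at the weakest of them a change under 1.39 on the log2 scale would not have passed the limit on p.

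RELA, RELB and BCL3 had no called distal region. The RELA region (chr11:65652230-65653709), 6.77 kb after a start, was strong, with 927 and 903 normalized reads, and its interval was narrow (−0.19 to 0.11). The RELB regions, both in introns of the gene, had values of 0.13 and −0.39 at mean signals of 92.9 and 20.9. At BCL3, an intronic region of 1690 bases had 679 and 682 normalized reads (0.01 ± 0.079), while 2 upstream regions stood at 0.42 (adjusted p = 0.066) and −0.39 (adjusted p = 0.060).

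**Figure D3:**
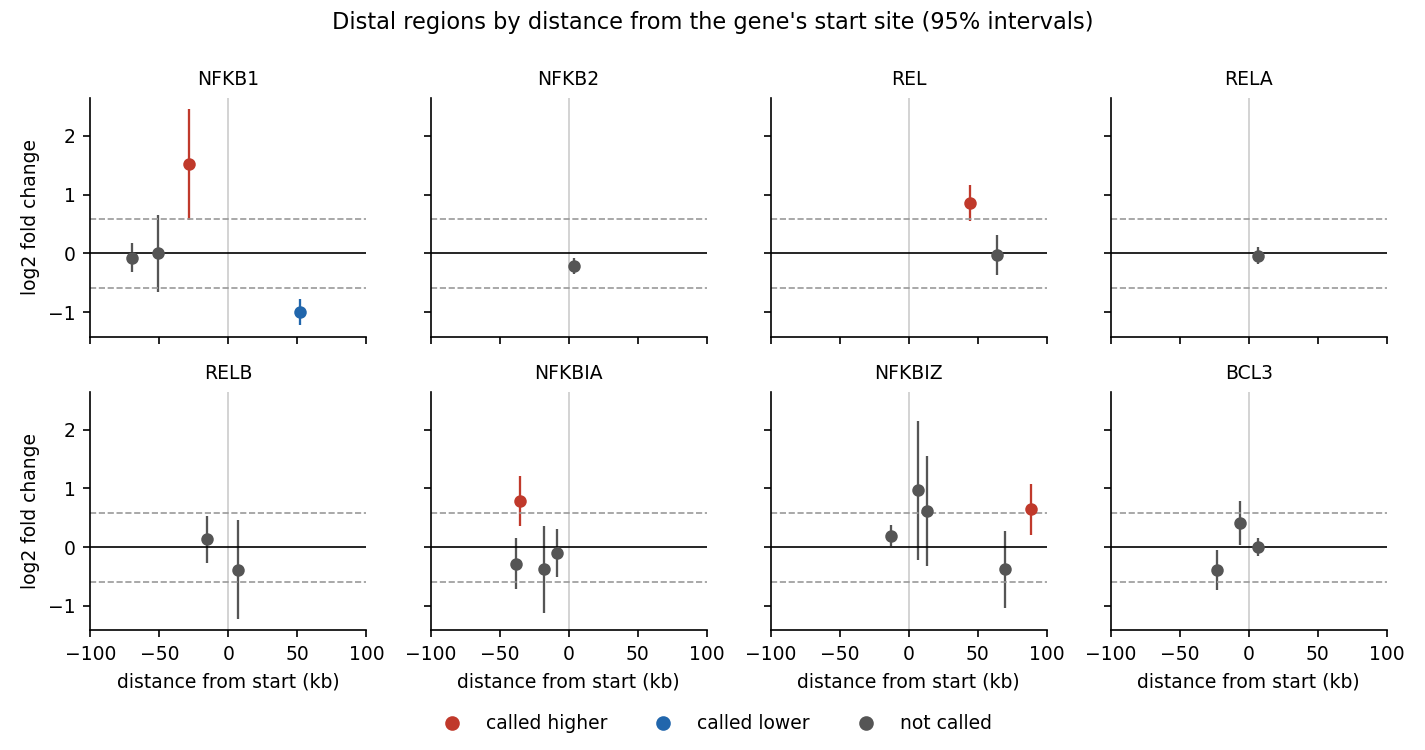
Log2 fold change (senescent over non-senescent, y axis) of the 22 distal regions against the distance of their middle from the nearest start of the gene in kb (x axis, negative before the start), with 95% intervals, one panel per gene. Red points rose, blue fell, and dashed lines mark 1.5-fold. NFKB1 holds both the highest value (1.52) and the lowest (−0.99).

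Over the 22 distal regions, 4, or 18.2%, were called higher, against a background of 17.4% of 55158 distal regions, and 1, or 4.55%, was called lower, against 10.9%. At any fold, 4 were higher (background 23.0%) and 2 lower (background 19.7%). The median log2 fold change was −0.01, beside 0.03 for all distal regions. The counts are near the background. The 5 called distal regions lay 28.5 to 88.9 kb from a start, and 3 of them, the upstream regions of NFKB1 and NFKBIA and that of NFKBIZ, were outside protein-coding genes.

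Precision followed the signal. In the 15 distal regions whose mean signal was 50 or more, the median standard error was 0.18 and 8 intervals lay inside 1.5-fold. In the 7 weaker regions the median standard error was 0.43 and 0 intervals did, so at these a change of 1.5-fold could not have been excluded.

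**Figure D4:**
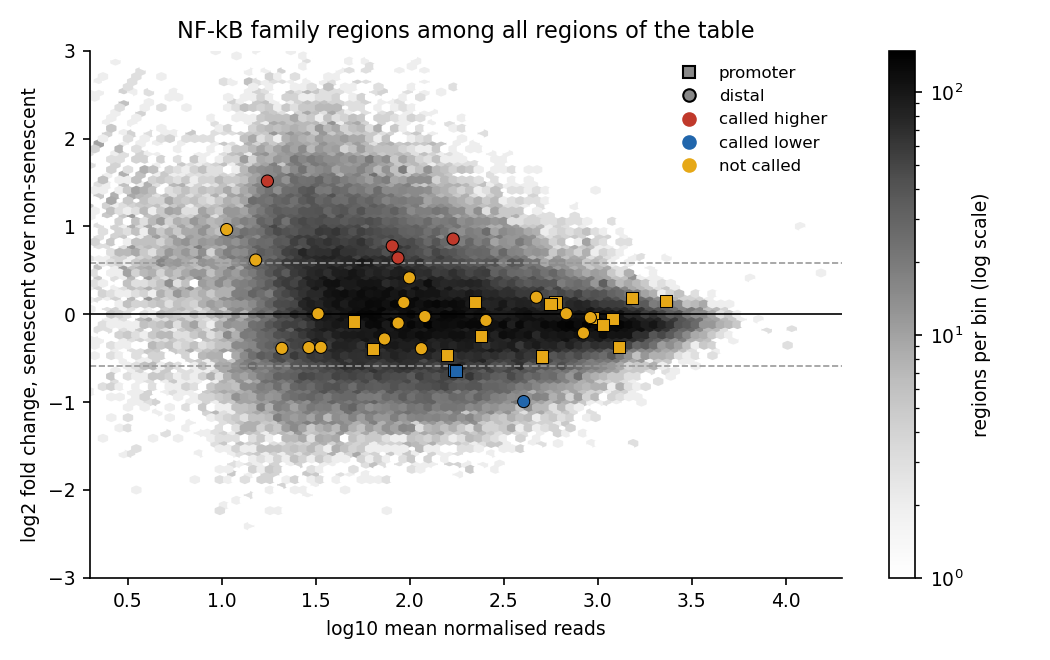
Log2 fold change (senescent over non-senescent, y axis) against the log10 of the mean normalized reads (x axis) for all 108542 regions in gray, darker where more regions fall, with the 16 promoter (squares) and 22 distal (circles) regions of the NF-kB family on top. Promoter regions sit at higher signal (median 533) and nearer 0 than distal regions (median 89.8). A few gray points beyond the axes are not drawn.

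The members were also described by motifs counted on both strands in the middle 300 bases of each region. A κB match was present in 7 of 16 promoter regions, or 43.8%, against 14.7% of all promoter regions: both regions of NFKB2, 2 of BCL3, and 1 each of REL, RELA and IKBKB. In distal regions it was present in 2 of 22, or 9.09%, against 7.32%, at RELA and BCL3. The matches printed above for NFKBIA, RELB and NFKBIZ, and that of BCL3 1189 bases before the start, lie outside these middle 300 bases and are not counted here. Of the 7 promoter regions with a match, 1 was called, that of NFKB2, which fell. Over all promoter regions with a match, 9.80% were called lower and 1.93% higher. The AP-1 element TGACTCA was present in 1 promoter region (6.25%, against 3.19%) and 2 distal regions (9.09%, against 7.05%), at BCL3 and RELB. The E2F element TTTCCCGC was present in 2 promoter regions (12.5%, against 1.77%), those of REL and IKBKB, and in 0 distal regions (against 0.430%). The forkhead element TGTTTAC was present in 0 promoter regions (against 3.11%) and 3 distal regions (13.6%, against 9.26%), and the interferon-response core AAANNGAAA in 1 promoter region (6.25%, against 6.24%) and 5 distal regions (22.7%, against 13.1%). The GC box GGGCGG was present in 11 promoter regions, or 68.8%, against 55.5% of all promoter regions, and in 3 distal regions (13.6%, against 11.1%). The NF-Y element CCAAT was present in 4 promoter regions (25%, against 24.2%) and 5 distal regions (22.7%, against 29.5%), and the MAF element TGCTGAC in 2 promoter regions (12.5%, against 4.32%) and 3 distal regions (13.6%, against 7.67%). The cAMP-response element TGACGTCA was not present in the middle 300 bases of any member region, against 1.41% of all promoter and 0.319% of all distal regions. Outside those bases, it occurs in the RELB promoter region, in the RELB window printed above that lies farther from the start. These shares rest on few regions and were not tested. A match describes letters in a window and not a bound site.

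Other genes of the pathway were taken from a list of 82, each by its strongest promoter region. 68 had one. Of these 1, or 1.47%, was called higher and 9, or 13.2%, lower, beside 1.39% and 7.02% of all genes. Their median log2 fold change was −0.14, the same to 2 decimals as over all genes. At any fold, 5, or 7.35%, were higher and 28, or 41.2%, lower, beside 8.23% and 39.9% of all genes.

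Of the 28 receptors and adaptors with a region, 4 fell: TNFRSF13C, the receptor for the cytokine BAFF (−1.65 ± 0.44, mean signal 22.04), TRAF3, an adaptor that restrains the noncanonical route (−0.97 ± 0.13), CD40, a TNF-family receptor (−0.75 ± 0.27, mean signal 54.3), and BIRC3, a ubiquitin ligase of TNF signaling (−0.75 ± 0.083). 0 rose. The 10 kinases and their partners ranged from −0.41 at MAP3K8 to 0.19 at MAP3K14, the NF-kB-inducing kinase, with 0 called. CHUK and IKBKG, the partners of IKBKB in the IκB kinase complex, had values of −9.6e-06 and −0.03.

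Of the 14 other inhibitors, all with a region, 2 fell: NLRC3 (−1.81 ± 0.48, mean signal 18.2) and PDLIM2 (−0.75 ± 0.12). TNFAIP3, which encodes the feedback inhibitor A20, had a value of −0.27 ± 0.071 (adjusted p = 0.00058), and NFKBIE, which encodes IκBε, −0.11 ± 0.089. Of 26 target genes only 16 had a promoter region, and TNF, IL1A, IL1B, CCL2, CCL5, CCL20, CXCL10, CSF2, VCAM1 and BCL2A1 had none in the table used here. The neutrophil chemokine gene CXCL8 rose (1.02 ± 0.24), whereas the related chemokine genes CXCL1 (−0.87 ± 0.11) and CXCL2 (−0.70 ± 0.096) and the protease gene MMP9 (−0.68 ± 0.29) fell. The MMP9 region had a mean signal of only 49.7, and its call was close to the limit on p (adjusted p = 0.043). The IL6 region had a value of −0.04 ± 0.20.

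**Figure D5:**
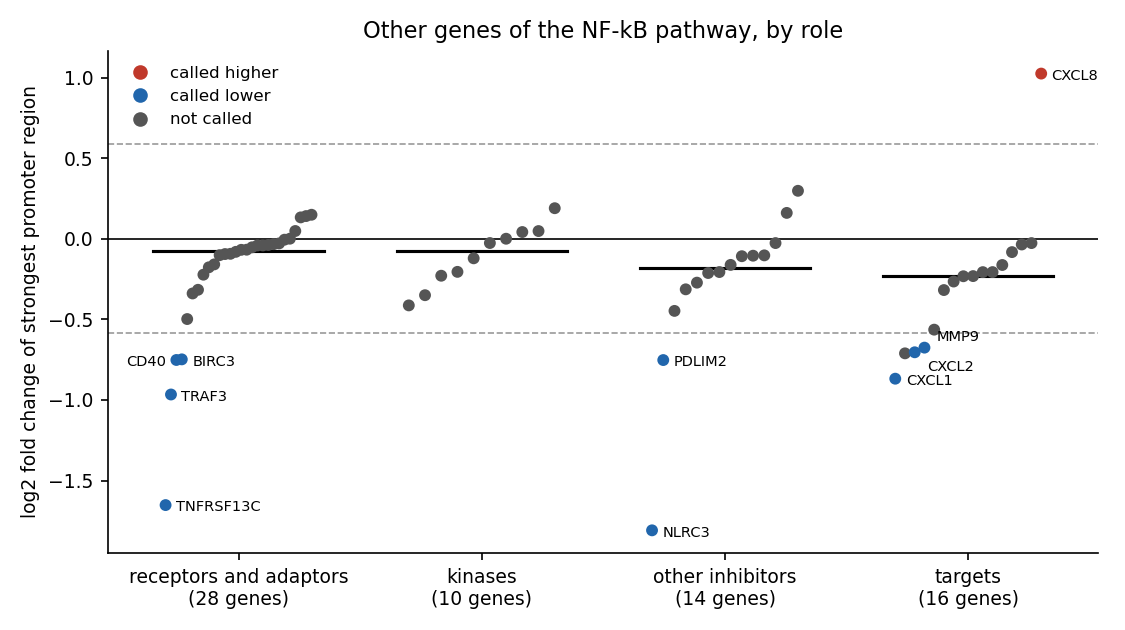
Log2 fold change (senescent over non-senescent, y axis) of the strongest promoter region of 68 other pathway genes, in columns by role, each point a gene ordered by value, with black bars at the median of each role and dashed lines at 1.5-fold. Named points are the 10 called genes, of which CXCL8 is the only one that rose.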

How the data were processed

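ATAC-seq libraries (3 of senescent and 3 of non-senescent EndoC-βH3 cells) were grouped by their labels. The authors' processing, as their methods give it, comprised trimming (Trim Galore), alignment to hg38 (Bowtie2), removal of mitochondrial and duplicate reads, a shift for the Tn5 offset, peak calling (MACS2), read counting over the merged peaks and a DESeq2 comparison. Versions are not given in the sources used here.

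The signal in the authors' deposited table is the mean count after division by size factors. Fold changes and standard errors are log2 values of the authors' model, the score is the authors' Wald statistic, and the p-value and adjusted p-value are the authors' own. In all 108542 regions the score equalled the fold change divided by its error, and the adjusted p-value equalled the Benjamini-Hochberg adjustment of a two-sided Wald p-value. Values of single libraries are not in the table, so the authors' comparison served as the test and depth per library was not analysed.

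Regions were called at an adjusted p under 0.05 and a fold change over 1.5. Intervals are normal 95% intervals from the standard error. Group levels were derived from mean signal and fold change for 3 libraries a group. Region limits are printed as deposited, and sequence windows count from 1. Start sites came from GENCODE 44 and sequences from the hg38 genome. Windows that overlap an untranslated exon or lie on chromosome 8 are not shown. For each gene the strongest promoter region, every called region and the strongest distal region were named, with the others by value or range. Pathway genes were named where called, and CHUK, IKBKG, MAP3K8, MAP3K14, TNFAIP3, NFKBIE, IL6 and CXCL3 were added after their values were seen. A gene of the pathway list is not reported here. The members and lists were chosen with earlier results of these data known. Scripts used Python 3.11.15, pandas 2.3.3 and scipy 1.17.1 and were tested on simulated data. Alternatives changed the limits and windows, centred the fold changes, or removed their trend with mean signal or GC content by running medians over 1000 regions on each side.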

Additional observations from a re-analysis of the deposited data

How the results depend on the processing

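No paired analysis was possible because values of single libraries are not in the deposited table. For the same reason no replicate could be left out, no count model refitted and no other normalization tried. Without the fold limit, 2 member promoter regions were higher and 5 lower, 2 member distal regions were lower, and 5 pathway promoter regions were higher and 28 lower. When the Wald test asked for more than 1.5-fold, 0 member promoter regions were lower and 0 distal regions higher, and 0 pathway promoter regions were higher and 0 lower, while the fall in the NFKB1 intron kept its call. A limit of 50 kb left 0 distal regions lower, since that intron region lies beyond it. The other counts stayed within 1.5 times, and both medians moved by less than the median standard error. At the edge of that range, the 9 pathway promoter regions called lower became 6 when a mean signal of at least 50 was asked for. They also became 6 with a promoter window of 1 or 0.5 kb. With the trend on mean signal removed, the sign turned at the promoter regions of NFKB1 (0.071) and REL (0.064), the RELA distal region (0.075) and a weak NFKB1 distal region (−0.22). After removal of the GC trend, it turned at the promoter regions of NFKB1 (0.11), REL (0.11) and NFKBIA (0.023), the RELA distal region (0.10), that weak NFKB1 region (−0.11) and the strongest NFKBIZ distal region (−0.10). Centred on the median, it turned at the weak NFKB1 region (−0.00060) and the intronic BCL3 region (−0.00061). None of these was called in any of the 3. Removing the trend on GC content shifted the median of all promoter regions of the table by 0.13 and of all distal regions by −0.09. With it the upstream NFKBIZ promoter region passed both limits (−0.61) and the NFKB2 intron region no longer did (−0.49).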

Other observations

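Over all regions of the table, κB matches can be set beside the calls. Of 4036 distal regions with a κB match in the middle 300 bases, 10.7% were called higher and 12.6% lower in senescent cells. Of 51122 without one, 17.9% were called higher and 10.8% lower. The median GC content was 56.7% with and 46.7% without a match, and its part in this difference was not tested. At promoter regions the shares were 1.93% higher and 9.80% lower with a κB match (2960 regions) and 3.84% and 8.91% without (17134 regions). The distal pattern was not particular to κB. Distal regions with a GC box were called higher in 6.17% and lower in 13.1%, and those with the E2F element in 5.49% and 18.6%. With AP-1 (24.9% and 8.94%) and the MAF element (27.6% and 7.59%) more were higher than lower. The same held for forkhead (16.5% and 13.6%), NF-Y (18.0% and 11.5%), the interferon-response core (18.2% and 11.1%) and the cAMP-response element (16.5% and 3.41%). These are descriptions with no test, since regions of the same libraries are not replicates.

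The 4 chemokine genes CXCL8, CXCL1, CXCL3 and CXCL2, neighbours on chromosome 4, did not move together. The CXCL8 region had a mean signal of 66.3 and rose (log2 fold change 1.02), while CXCL1 (mean signal 335) and CXCL2 (466) fell by 0.87 and 0.70 on the log2 scale. CXCL3 (544) had a value of −0.23, with an interval from −0.44 to −0.02, but did not pass the limit on p (Wald test, adjusted p = 0.07).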
